A study of Mus musculus with 16 samples.

Results

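Glycosyltransferases are the enzymes that build the sugar chains of glycoproteins, glycolipids and proteoglycans. Those described here were every probe set whose platform annotation gave 1 gene symbol of the fucosyltransferase (Fut), sialyltransferase (St3gal, St6gal, St6galnac, St8sia), galactosyltransferase (B3gal, B4gal), N-acetylgalactosaminyltransferase (B3galnt, B4galnt, Galnt), N-acetylglucosaminyltransferase (B3gnt, Mgat, Gcnt) or exostosin (Ext, Extl) families. They were 60 of the 12488 probe sets on the array and stood for 52 of the 8252 genes it names by 1 symbol. Of these genes, 39 passed a filter on low values and were tested, and 13 did not. The rule reads the symbols alone and no measured value, but it was set with earlier results of these data known.

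RNA of mouse spinal cord was hybridised to 16 single-colour arrays. The spastic group had 6 arrays of 5 titles: 2 titled female of 2 months, 1 titled sev, male and 3 months, 1 titled male and 3+ months, and 1 title with the letter M, female and 6 months, with 2 arrays. Spastic mice carry a recessive mutation, spa, in Glrb, whose product is the beta subunit of the glycine receptor, an inhibitory chloride channel. The group named B6C3Fe, after a hybrid mouse stock, had 2 arrays of 1 title, male and 1 month. The control group had 8 arrays of 4 titles, female and male at 9 and at 12 months. The labels give no genotype or stock for the controls, no treatment for any group, and no region of the cord. Where 2 arrays shared a title apart from a final letter, a or b, their mean was used, giving 5 spastic, 1 B6C3Fe and 4 control samples. Whether such arrays came from separate animals is not stated, so p-values measure the spread between samples, which may be technical in part. No titled age was shared between groups, so age and group cannot be told apart.

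Glycosyltransferases sit mostly in the Golgi apparatus and move 1 sugar at a time from a nucleotide-sugar donor to a growing chain. Most of these families are named for the sugar they add, and the order of action of their members fixes which chains a cell can make. Nervous tissue is known for gangliosides, which are sialic acid-bearing lipids of neuronal membranes, for polysialic acid on the adhesion molecule NCAM, for the fucosylated Lewis x epitope, and for heparan sulfate chains on cell surface and matrix proteoglycans.

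Array quality and titles were checked first. Median intensity ran from 289 to 343 on the spastic arrays, from 343 to 347.2 on the B6C3Fe arrays and from 310.5 to 383.6 on the control arrays. Glrb had a mean log2 intensity of 10.57 in spastic samples, 12.95 in the B6C3Fe sample and 13.00 in control samples, with no overlap between spastic and other arrays. Xist, the RNA of the inactive X chromosome, was at 10.37 to 11.45 on every spastic array and the Y-linked Eif2s3y was at the floor of 5.93 there, against the titles of the 2 spastic samples titled male. Results are therefore also given without those 2 samples. The log2 ratio of the 3-prime over the 5-prime control probe sets for pyruvate carboxylase (Pcx), a measure of RNA integrity and labelling, averaged 2.40 (2.00 to 2.98) on spastic arrays, 1.78 (1.67 to 1.89) on B6C3Fe arrays and 1.73 (1.31 to 2.72) on control arrays. The GAPDH ratio ran from -0.67 to -0.10 on spastic, -0.49 to -0.16 on B6C3Fe and -0.64 to 0.99 on control arrays. The actin ratio was -3.29 and -1.21 on B6C3Fe arrays a and b, and ran from -0.56 to 1.27 on the other arrays. The control genes thus did not order the groups alike. The control Pcx ratio of 2.72 belonged to array a of the 9-month females, where the GAPDH ratio was also the highest, at 0.99. That array differed from its array b by over 1 on the log2 scale at 8 glycosyltransferases, against 0 to 3 in the other 5 titles with 2 arrays. The part of RNA integrity in the results was not tested beyond the fits with the Pcx ratio as a covariate that are given beside them.

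Promoter sequences of 34 of the 52 genes were found in RefSeq (GRCm38.p6), each covering 250 bases before to 50 bases after a gene start. Among the 7 genes called below, only St6galnac6, St8sia4 and B3galt6 had one, and all 3 are shown. The St6galnac6 promoter (chr2:32599459-32599758, plus strand) held 2 CG dinucleotides, and 14.1% of all promoters held fewer. The St8sia4 promoter (chr1:95667545-95667844, minus strand) held 22 CG dinucleotides, and the capitals mark 1 GC box (GGGCGG, read on the other strand) and 2 CCAAT motifs, 1 of them on the other strand. The B3galt6 promoter (chr4:155992629-155992928, minus strand) held 48 CG dinucleotides, more than 98.8% of promoters, and the capitals mark 9 copies of a unit of 22 bases.
St6galnac6: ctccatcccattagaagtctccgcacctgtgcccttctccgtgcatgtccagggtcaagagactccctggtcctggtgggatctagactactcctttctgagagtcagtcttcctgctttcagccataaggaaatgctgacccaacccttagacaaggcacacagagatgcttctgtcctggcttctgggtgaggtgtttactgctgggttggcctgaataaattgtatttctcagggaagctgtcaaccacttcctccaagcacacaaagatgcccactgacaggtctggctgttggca
St8sia4: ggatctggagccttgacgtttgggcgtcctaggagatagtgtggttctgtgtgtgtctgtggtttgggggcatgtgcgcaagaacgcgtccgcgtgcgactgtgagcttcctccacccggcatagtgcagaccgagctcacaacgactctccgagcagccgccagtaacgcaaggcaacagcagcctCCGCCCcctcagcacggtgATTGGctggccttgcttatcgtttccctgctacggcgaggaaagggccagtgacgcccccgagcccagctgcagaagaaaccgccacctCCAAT
B3galt6: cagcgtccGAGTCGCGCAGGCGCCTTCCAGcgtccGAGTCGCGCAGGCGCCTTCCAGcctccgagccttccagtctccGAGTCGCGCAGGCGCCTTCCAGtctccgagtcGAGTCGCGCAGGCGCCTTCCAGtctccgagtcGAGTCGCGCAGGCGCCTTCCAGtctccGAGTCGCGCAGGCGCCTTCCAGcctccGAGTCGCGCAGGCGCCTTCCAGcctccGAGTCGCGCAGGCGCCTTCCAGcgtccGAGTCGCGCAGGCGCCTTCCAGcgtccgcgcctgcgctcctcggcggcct

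Over all 50 promoters of these genes, some genes having several, the median number of CG dinucleotides was 18.5, against 7 over all 32841 promoters. On either strand, GGGCGG was found in 28 of the 50, CCAAT in 18, TATAAA in 1 and the E-box CACGTG in 3, while over all promoters the shares were 35.7%, 37.4%, 13.6% and 7.15%. St6galnac6 lies on chromosome 2 beside its paralog St6galnac4 on the same strand, with promoter windows 12.6 kb apart. These matches describe the sequence windows only.

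In spastic minus control, 7 of the 39 tested glycosyltransferases were called at an adjusted p under 0.05 (limma, Benjamini-Hochberg over all 6427 genes tested). Fut9, St6galnac5 and B3galt6 were lower in spastic cords, and St6galnac6, Extl3, B4galnt1 and St8sia4 were higher. The share called was 17.9%, against 19.8% over all genes tested (9.83% higher and 9.93% lower), so as a class these enzymes were called about as often as other genes. At an unadjusted p under 0.05 the count was 16 of 39, against 2203 of 6427 over all genes (34.3%). Differences ran from -2.57 to 1.63 on the log2 scale, with a median of -0.12 (all genes -0.02) and a median absolute difference of 0.25 (all genes 0.24). Spastic and control samples did not overlap at 7 of the 39 genes, or 17.9%, against 19.5% of all genes. Those were the called genes without B4galnt1, and with Galnt2, an enzyme that starts mucin-type O-glycans, at 0.24 (adjusted p = 0.0971). Since spinal cord is a mixture of cells, fewer cells of a type and less RNA per cell cannot be told apart in any of these values. Leaving out array a of the 9-month female controls gave 11 calls, against 22.3% of all genes. Leaving out both spastic samples with male titles gave 3, against 6.22% of all genes. The Pcx ratio as a covariate gave 0, with 9 calls among all genes.

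**Figure D1:**
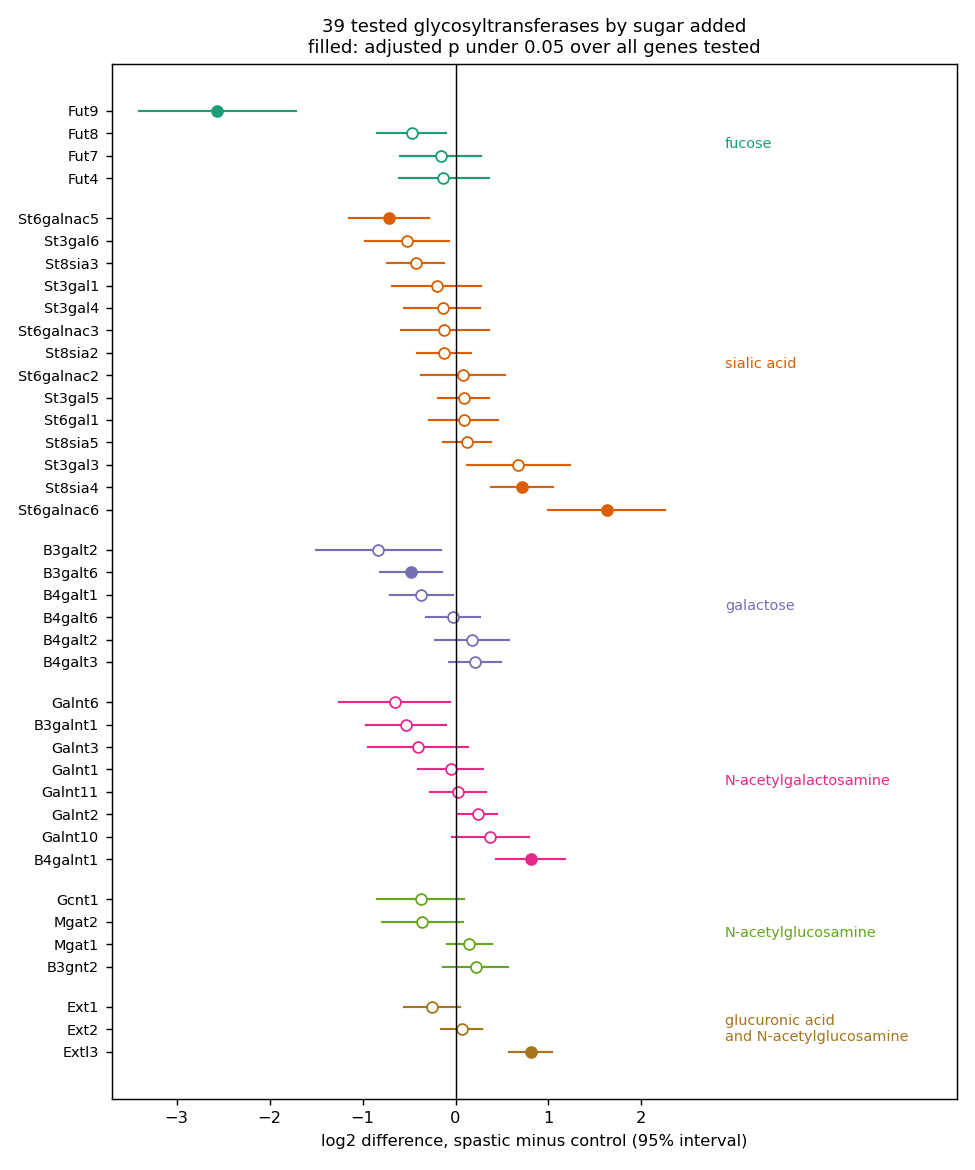
Log2 difference of each of the 39 tested glycosyltransferases, spastic minus control, on the horizontal axis, with its 95% interval, grouped and coloured by the sugar added. Filled points passed an adjusted p under 0.05. Fut9 at -2.57 lies farthest to the left and St6galnac6 at 1.63 farthest to the right, and most intervals of the others cross or come near 0.

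Calls in each sugar group below are to be read against the 19.8% of all genes called in spastic minus control (9.83% higher, 9.93% lower). Fucosyltransferases were the group with the largest single difference. Of 6 genes, 4 were tested, 1 was lower, and 0 were higher. The median was -0.32 and all 4 differences were negative, from -2.57 to -0.13. The called gene was Fut9, which adds the fucose of the Lewis x epitope in brain.

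Fut9 (probe set 95328_at) had log2 intensities of 7.59 and 6.50 on the 2-month spastic arrays, 7.02 on the sev array, 5.93 on the 3+ month array, and 6.87 and 6.46 on the 6-month arrays a and b. The B6C3Fe arrays a and b had 10.15 and 9.70. Control arrays a and b had 7.61 and 8.98 in 9-month females, 9.27 and 9.22 in 9-month males, 10.11 and 9.61 in 12-month females, and 9.57 and 10.05 in 12-month males. Every spastic array lay below every other array, by a narrow margin to control array a of the 9-month females, and the 3+ month value was at the floor. By sample, Fut9 averaged 6.74 ± 0.62 in spastic cords (SD, n = 5), 9.93 in the B6C3Fe sample and 9.30 ± 0.73 in control cords (SD, n = 4). The fitted difference from controls was -2.57 ± 0.38 (SE; 95% interval -3.41 to -1.72), or 5.93-fold lower, with an adjusted p of 0.00223 by limma. A floor at the 40th percentile gave -1.60 (adjusted p = 0.00237), samples titled female alone gave -2.16 (adjusted p = 0.0602), and the Pcx covariate gave -1.68 (adjusted p = 0.13).

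The other tested fucosyltransferases differed less. Fut8, which adds the core fucose of N-glycans, had log2 intensities by array of 8.89 to 9.82 in spastic cords, 10.06 and 10.14 in the B6C3Fe arrays, and 9.61 to 10.09 in controls. Its arrays overlapped between spastic and control cords, and the difference was -0.47 (95% interval -0.85 to -0.10, adjusted p = 0.0745). Fut7 and Fut4, which act in making sialyl Lewis x and Lewis x on leukocytes, were at -0.16 and -0.13 (adjusted p = 0.597 and 0.727).

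**Figure D2:**
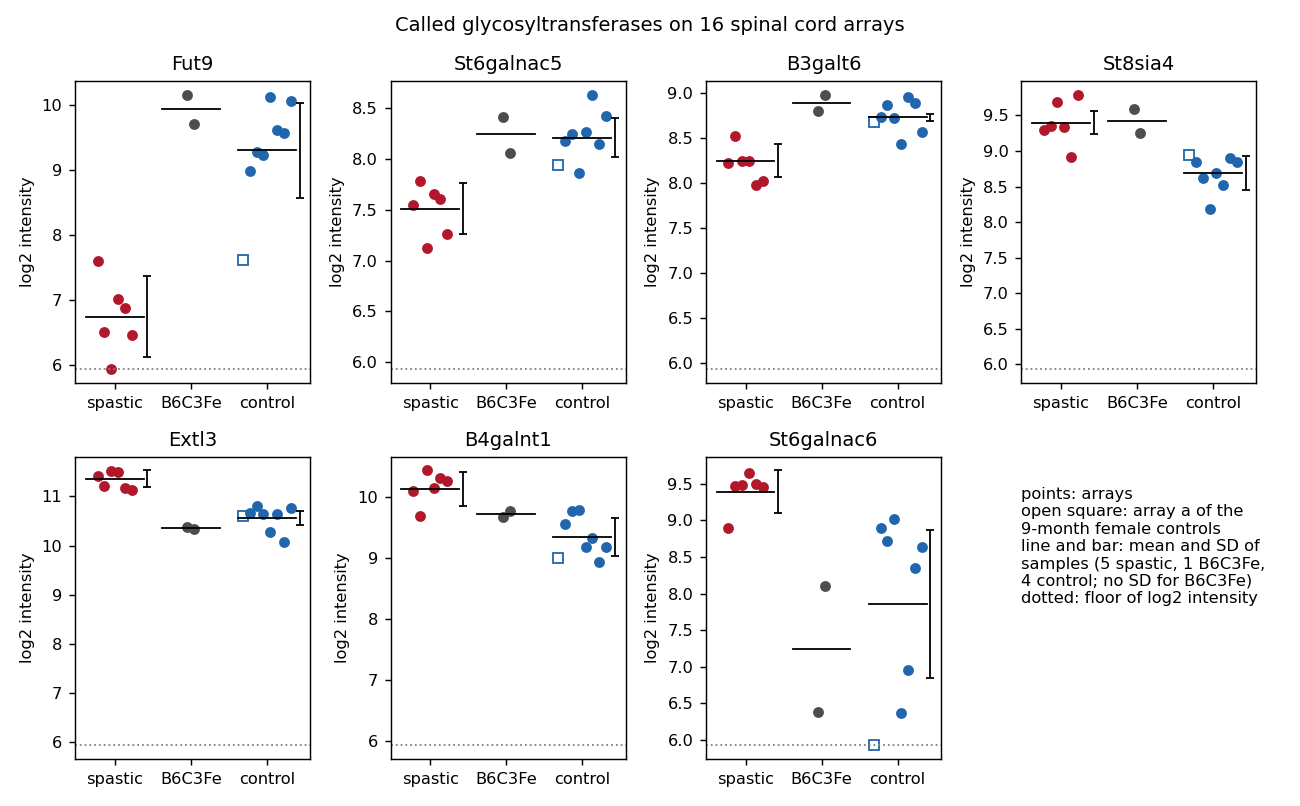
Log2 intensity (vertical axis) of the 7 called glycosyltransferases on each array of the spastic, B6C3Fe and control groups, with the mean and SD of the samples as line and bar. Arrays of Fut9 and St6galnac5 in spastic cords lie below all others and those of Extl3 above all others, while control arrays of St6galnac6 range from 5.93 to 9.02.

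Sialyltransferases had calls in both directions, as had all genes tested (9.83% higher, 9.93% lower). Of 18 genes, 14 were tested, 2 were higher, 1 was lower and 11 were not called, with 7 differences positive, 7 negative and a median of -0.02. St6galnac6 and St8sia4 rose and St6galnac5 fell. St6galnac5 and St6galnac6 belong to the same subfamily, which adds sialic acid to the N-acetylgalactosamine of gangliosides and makes those of the alpha series.

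St6galnac6 (100369_at) had 8.90 and 9.47 on the 2-month spastic arrays, 9.65 on the sev array, 9.48 on the 3+ month array, and 9.49 and 9.45 on the 6-month arrays. B6C3Fe arrays a and b had 6.38 and 8.10. Control arrays a and b had 5.93 and 8.89 in 9-month females, 8.72 and 9.02 in 9-month males, 6.37 and 6.95 in 12-month females, and 8.35 and 8.64 in 12-month males. The spastic values lay close together, whereas the control and B6C3Fe values were widely spread, also between arrays of 1 title. A single control array at 9.02 exceeded the lowest spastic array, and by sample the groups did not overlap. Means were 9.39 ± 0.29 in spastic samples (SD, n = 5), 7.24 in the B6C3Fe sample and 7.86 ± 1.01 in controls (SD, n = 4). The fitted difference from controls was 1.63 ± 0.28 (SE), or 3.09-fold higher (adjusted p = 0.00402, limma). On dropping array a of the female 9-month controls, which was at the floor, the difference was 1.22 (adjusted p = 0.0352), with a floor at the 40th percentile 1.11 (adjusted p = 0.0029), and with the Pcx covariate 1.93 (adjusted p = 0.0679).

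St6galnac5 (92403_at), a brain enzyme of the alpha-series ganglioside GD1alpha, had 7.55 and 7.78 on the 2-month spastic arrays, 7.65 on the sev array, 7.12 on the 3+ month array, and 7.61 and 7.26 on the 6-month arrays. B6C3Fe arrays had 8.41 and 8.06, and control arrays a and b had 7.94 and 8.18 in 9-month females, 8.24 and 7.86 in 9-month males, 8.26 and 8.63 in 12-month females, and 8.15 and 8.42 in 12-month males. No spastic array reached the lowest control array, although the gap was small. The means were 7.51 ± 0.25 in spastic samples (SD, n = 5), 8.24 in the B6C3Fe sample and 8.21 ± 0.19 in controls (SD, n = 4), and the difference from controls was -0.72 ± 0.20 (SE; 1.64-fold lower, adjusted p = 0.0261, limma). The call was lost on leaving out any 1 of 6 samples, with an adjusted p of up to 0.0851, and with the Pcx covariate the difference was -0.36 (adjusted p = 0.519). Leaving out the spastic samples of 3+ months and 6 months, the first 2-month spastic sample, the 12-month female, the 12-month male or the 9-month male controls had this effect.

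St8sia4 (102318_at), which makes polysialic acid, had 9.29 and 9.35 on the 2-month spastic arrays, 9.34 on the sev array, 9.69 on the 3+ month array, and 8.91 and 9.79 on the 6-month arrays. B6C3Fe arrays a and b had 9.59 and 9.25. Control arrays a and b had 8.95 and 8.84 in 9-month females, 8.62 and 8.18 in 9-month males, 8.69 and 8.52 in 12-month females, and 8.90 and 8.84 in 12-month males. The B6C3Fe arrays lay among the spastic arrays, and every control sample lay below both. Spastic samples averaged 9.40 ± 0.16 (SD, n = 5), the B6C3Fe sample 9.42, and controls 8.69 ± 0.24 (SD, n = 4). The difference from controls was 0.72 ± 0.15 (SE; 1.64-fold higher, adjusted p = 0.00883, limma), and that from the B6C3Fe sample 0.02 (95% interval -0.56 to 0.59, adjusted p = 0.98). When the B6C3Fe sample was pooled with the controls and an age term (log2) was fitted, the difference was 0.40 (adjusted p = 0.176), and with the Pcx covariate 0.38 (adjusted p = 0.334). It was also not called from the 1a arrays alone (0.54, adjusted p = 0.0608) or without the 2 spastic samples titled male (0.58, adjusted p = 0.12).

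Sialyltransferases that were not called included the second polysialyltransferase and several ganglioside enzymes. St8sia2, the other enzyme of polysialic acid, was at -0.12 (95% interval -0.41 to 0.17). St3gal5, which makes GM3, the parent of most gangliosides, was at 0.09, and St8sia5, which adds further sialic acids to gangliosides, was at 0.12. St8sia3 was at -0.43 (95% interval -0.74 to -0.12, adjusted p = 0.0546) and St3gal6 at -0.52 (adjusted p = 0.0992). The largest uncalled difference was that of St3gal3, which caps galactose of N-glycans, at 0.67 (95% interval 0.12 to 1.23, adjusted p = 0.0855). Its arrays ran from 7.51 to 8.73 in spastic cords, with 8.21 and 8.33 in the B6C3Fe arrays, and from 5.93 to 8.65 in controls, and so overlapped widely.

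N-acetylgalactosaminyltransferases comprised 11 genes, of which 8 were tested, 1 was higher and 0 were lower, with a median of -0.01. The called gene was B4galnt1 (103367_at), the synthase of GM2 and GD2 and the entry point to the complex gangliosides. Spastic arrays had 10.09 and 9.68 at 2 months, 10.15 in the sev array, 10.43 at 3+ months, and 10.31 and 10.25 at 6 months. B6C3Fe arrays had 9.66 and 9.77, and control arrays a and b had 9.0 and 9.55 in 9-month females, 9.77 and 9.78 in 9-month males, 9.18 and 9.33 in 12-month females, and 8.93 and 9.18 in 12-month males. The second 2-month spastic array lay below both 9-month male controls, so the groups overlapped, and the other spastic arrays lay above all controls. Means were 10.13 ± 0.28 in spastic samples (SD, n = 5), 9.72 in the B6C3Fe sample and 9.34 ± 0.31 in controls (SD, n = 4). The difference from controls was 0.81 ± 0.17 (SE; 1.75-fold higher, adjusted p = 0.00837, limma). On dropping both spastic samples with male titles it was 0.75 (adjusted p = 0.0958), from female-titled samples alone 0.75 (adjusted p = 0.0805), and with the Pcx covariate 0.62 (adjusted p = 0.243).

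The Galnt enzymes, which start mucin-type O-glycans on serine and threonine, had no call. Galnt6 had the largest difference at -0.65 (95% interval -1.25 to -0.06, adjusted p = 0.115), and its control arrays alone spanned 5.93 to 8.89. Galnt10 was at 0.37, Galnt3 at -0.40, Galnt1 at -0.05 and Galnt11 at 0.03. B3galnt1, the globoside synthase, was at -0.53 (adjusted p = 0.0776). Second probe sets below the filter were at -0.13 for B3galnt1 and at -0.08 for Galnt3.

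Galactosyltransferases comprised 8 genes, of which 6 were tested, 1 was lower and 0 were higher, with a median of -0.20. B3galt6 (98291_at), which adds the second galactose of the linker that joins heparan and chondroitin sulfate to their core proteins, had 8.22 and 8.52 on the 2-month spastic arrays, 8.25 on the sev array, 8.25 at 3+ months, and 7.98 and 8.02 at 6 months. B6C3Fe arrays had 8.80 and 8.98, and control arrays a and b had 8.68 and 8.73 in 9-month females, 8.87 and 8.72 in 9-month males, 8.43 and 8.96 in 12-month females, and 8.89 and 8.57 in 12-month males. One spastic array, at 8.52, exceeded the lowest control array, and the samples did not overlap. Means were 8.25 ± 0.18 in spastic samples (SD, n = 5), 8.89 in the B6C3Fe sample and 8.73 ± 0.04 in controls (SD, n = 4). The difference from controls was -0.48 ± 0.15 (SE; 1.39-fold lower, adjusted p = 0.0456, limma). This was the weakest call: leaving out any 1 of 8 samples ended it, among them all 4 control samples and every spastic sample but the second of 2 months, with an adjusted p of up to 0.108. Quantile normalization gave -0.31 (adjusted p = 0.132) and the Pcx covariate -0.33 (adjusted p = 0.478).

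B3galt2, which adds galactose to N-acetylglucosamine, had a larger but more variable difference of -0.83 (95% interval -1.50 to -0.16, adjusted p = 0.0792). Its arrays ran from 6.67 to 8.07 in spastic cords, with 8.44 and 8.86 in the B6C3Fe arrays, and from 7.32 to 8.91 in controls. It was called in 6 of 28 alternative fits, among them the fit without array a of the female 9-month controls, at 7.32. Over the 28 fits the difference ran from -1.09 to 0.10, with 1 of the opposite sign. B4galt1 was at -0.37 (adjusted p = 0.114), B4galt2 at 0.18 and B4galt3 at 0.21. B4galt6, which makes lactosylceramide, was at -0.03 (adjusted p = 0.906).

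N-acetylglucosaminyltransferases, with 4 of 6 genes tested, had 0 calls, a median of -0.10 and differences from -0.37 to 0.22. Mgat1 and Mgat2, which open the hybrid and complex branches of N-glycans, were at 0.15 and -0.36 (adjusted p = 0.362 and 0.229). Gcnt1, which branches mucin-type O-glycans, had the largest difference at -0.37 (adjusted p = 0.242). B3gnt2, which extends polylactosamine chains, was at 0.22 (adjusted p = 0.356), and its second probe set, below the filter, was at 0.71. A second probe set of Mgat1 (161492_i_at) was at -0.16, opposite in sign, and neither was called.

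All 3 exostosin genes among those described here were tested, with 1 higher and 0 lower. Extl3 (95591_at), which starts the heparan sulfate chain on the linker, had 11.42 and 11.21 on the 2-month spastic arrays, 11.50 on the sev array, 11.52 at 3+ months, and 11.18 and 11.14 at 6 months. B6C3Fe arrays had 10.37 and 10.33, and control arrays a and b had 10.61 and 10.66 in 9-month females, 10.81 and 10.65 in 9-month males, 10.27 and 10.65 in 12-month females, and 10.08 and 10.77 in 12-month males. Every spastic array lay above every other array. Means were 11.36 ± 0.17 in spastic samples (SD, n = 5), 10.35 in the B6C3Fe sample and 10.56 ± 0.14 in controls (SD, n = 4). The difference from controls was 0.81 ± 0.10 (SE; 95% interval 0.58 to 1.04; 1.76-fold higher, adjusted p = 0.00154, limma). With the Pcx covariate it was 0.77 (adjusted p = 0.0679). Ext1 and Ext2, which together polymerise heparan sulfate, were at -0.25 and 0.07 (adjusted p = 0.226 and 0.683).

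The Pcx ratio was higher on all spastic arrays than on the B6C3Fe arrays and on 6 of the 8 control arrays, so ratio and group overlapped little. Array a of the 9-month female controls had a ratio of 2.72, inside the spastic range. It had Fut9 at 7.61, Extl3 at 10.61 and St6galnac6 at the floor of 5.93. Its array b had 8.98, 10.66 and 8.89. With the covariate the differences were 0.77 for Extl3, 1.93 for St6galnac6 and -1.68 for Fut9, against 0.81, 1.63 and -2.57 without it. None of the 3 was called with it (adjusted p = 0.0679, 0.0679 and 0.13, limma). Because the ratio differed with the group, this fit cannot tell them apart.

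**Figure D3:**
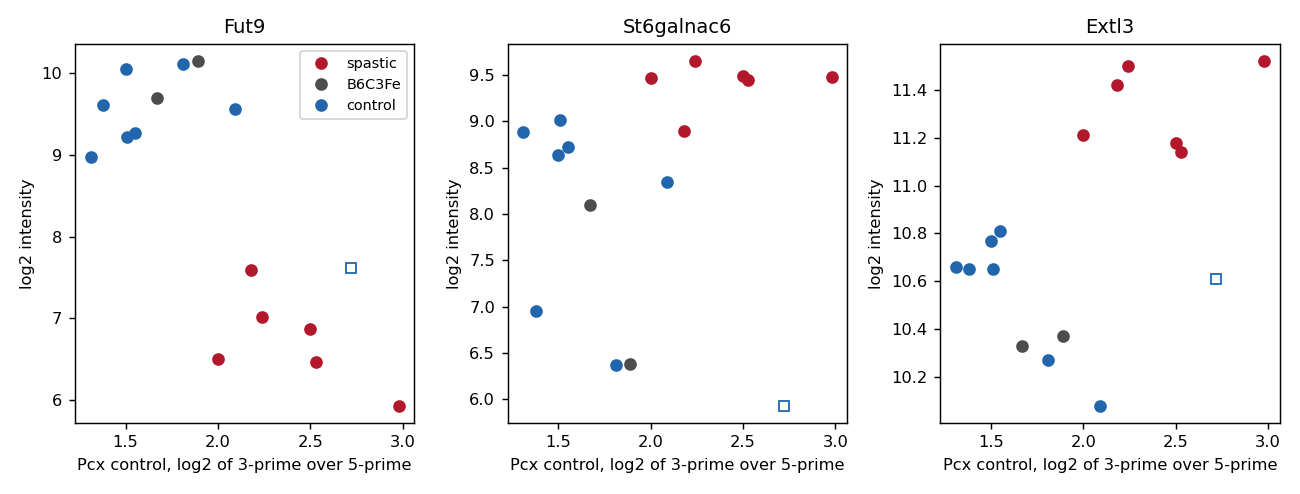
Log2 intensity (vertical axis) of Fut9, St6galnac6 and Extl3 on the 16 arrays against the log2 ratio of 3-prime over 5-prime Pcx control probe sets (horizontal axis), coloured by group, with array a of the 9-month female controls as an open square. At its ratio of 2.72 the open square is at 7.61 for Fut9, 5.93 for St6galnac6 and 10.61 for Extl3.

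Differences of the 7 genes kept their sign in each of the 28 or 29 alternatives that gave a value for them. Extl3 and St6galnac6 were each called in all but 1 alternative, Fut9 in all but 2, B4galnt1 in all but 3, St8sia4 in all but 5, St6galnac5 in all but 11 of 28 and B3galt6 in all but 13 of 28. On dropping both spastic samples with male titles, Fut9 was at -2.16 (adjusted p = 0.0354), St6galnac6 at 2.25 (adjusted p = 0.00938) and Extl3 at 0.72 (adjusted p = 0.0261), all still called in limma. In the same fit St6galnac5 was at -0.66 (adjusted p = 0.147) and B3galt6 at -0.45 (adjusted p = 0.232), and neither was called, nor were B4galnt1 and St8sia4.

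**Figure D4:**
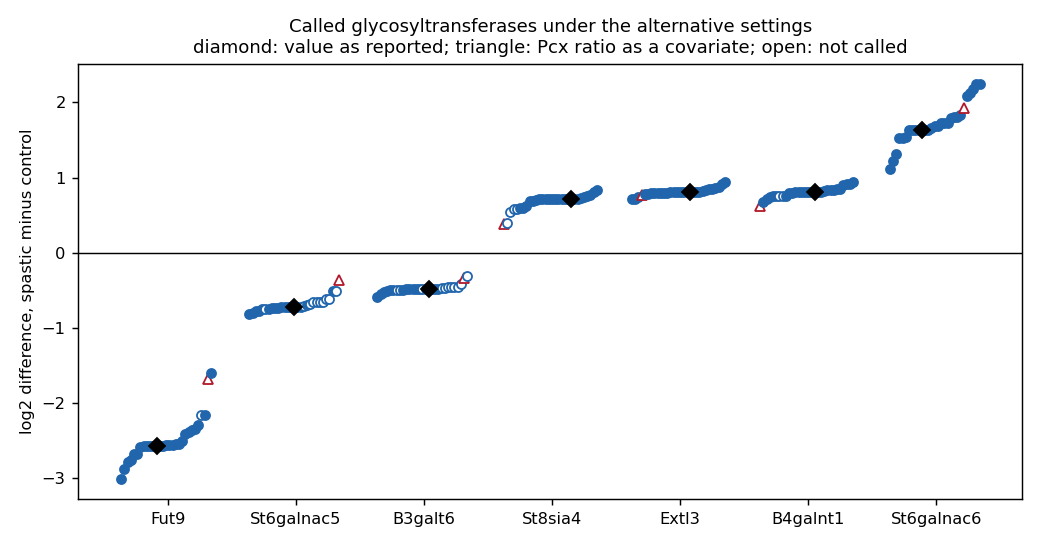
Log2 difference, spastic minus control (vertical axis), of the 7 called glycosyltransferases under each alternative, with the reported value as a diamond, the fit with the Pcx ratio as a triangle, and open symbols where the adjusted p was 0.05 or more. No value crosses 0. Fut9 ranges from -3.01 to -1.60 and St6galnac6 from 1.11 to 2.25, and the open symbols are most frequent for B3galt6 and St6galnac5.

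Against the B6C3Fe sample, a younger comparison, 3 of the 39 genes were called (7.69%, against 2.05% of all genes, 1.42% higher and 0.638% lower). This contrast shares the spastic samples with the one above and is no independent repeat of it. Fut9 was lower by -3.21 ± 0.67 (SE; adjusted p = 0.0363, limma), St6galnac6 was higher by 2.70 ± 0.49 (SE; adjusted p = 0.0268), and Extl3 was higher by 1.10 ± 0.18 (SE; adjusted p = 0.0206). The median over the 39 was -0.08 (all genes -0.02) and 10 had an unadjusted p under 0.05 (20.3% of all genes). The contrast rests on 1 B6C3Fe sample of 2 arrays, which was assumed to vary like the other groups. By Xist and Eif2s3y every spastic array had a female pattern and both B6C3Fe arrays a male one, so that sex and group cannot be told apart here, and the sex term of the fit rests on titles that these genes contradict in 2 spastic samples. With no sex term St6galnac6 was at 2.16 and was not called (adjusted p = 0.0928), while Fut9 at -3.19 (adjusted p = 0.0233) and Extl3 at 1.01 (adjusted p = 0.0188) were. The St6galnac6 call was also lost on dropping array a of the female 9-month controls (2.50, adjusted p = 0.0585) and with no filter on low values (adjusted p = 0.0652), and a floor at the 40th percentile gave 1.78 (adjusted p = 0.0267). Without the sev sample the count was 0, without the 3+ month sample 1, without both of those samples 1, and with the Pcx covariate 0. Shares over all genes are not given for these fits, so the counts cannot be set against them. Differences of the other 4 genes called against controls were -0.82 for St6galnac5, -0.62 for B3galt6, 0.54 for B4galnt1 and 0.02 for St8sia4, with adjusted p-values of 0.215, 0.221, 0.321 and 0.98. The largest differences that were not called were those of B3galt2 at -1.07 (adjusted p = 0.285), St6galnac3, a ganglioside sialyltransferase, at -0.98 (adjusted p = 0.187) and Fut8 at -0.90 (adjusted p = 0.141).

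Between B6C3Fe and control cords, 0 of the 39 were called (0.389% of all genes), with 3 at an unadjusted p under 0.05 by limma (965 of 6427 over all genes) and a smallest adjusted p of 0.247. That smallest value was St8sia4, at 0.70 (95% interval 0.13 to 1.27). St6galnac3 was at 0.87, Mgat1 at 0.43 and St6galnac6 at -1.07 (95% interval -2.15 to 0.01). The median over the 39 was 0.17, against 0.01 over all genes.

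Among controls, 12 minus 9 months gave 0 calls (0% of all genes), with 2 of the 39 at an unadjusted p under 0.05 in limma (346 of 6427 over all genes). They were St3gal6 at 0.66 and B4galt1 at 0.47 (adjusted p = 0.897 and 0.906). Fut9 was at 1.07 (95% interval -0.04 to 2.17). Apart from the title 3+, whose upper limit is not stated, spastic mice were younger than 9 months by title. The sample titled sev, against the other 4 spastic samples, gave 0 calls among the 39 (0.0156% of all genes), with 0 at an unadjusted p under 0.05 (257 of 6427 over all genes) and differences from -0.63 to 0.82. With 1 sample on 1 side, only large differences could have been detected.

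The 13 genes that were not tested had their highest probe set below the filter of 7.62. They were Fut1 and Fut2, St3gal2, St6galnac1, St6galnac4 and St8sia1, B3galt1 and B3galt4, B3galnt2, B4galnt2 and Galnt4, and Gcnt2 and Mgat3. Fut2, which makes the H antigen of secretions, was at the floor on 16 of 16 arrays, and St6galnac1, which makes sialyl-Tn, on 15. With no filter and every probe set in the fit, none of the 13 was called in spastic minus control. In the same fit a probe set of B4galnt2, at the floor on every spastic and control array and at 6.61 and 6.21 on the B6C3Fe arrays, was at -0.48 in spastic minus B6C3Fe and at 0.48 in B6C3Fe minus control, each with an adjusted p of 1.88e-08. Its spread within the spastic and within the control samples was 0 because all values were at the floor, so this p is not read as a result. Mgat3, which adds the bisecting N-acetylglucosamine, was at -1.0 (adjusted p = 0.128), B3galt1 at -0.86 (adjusted p = 0.142), B3galnt2 at -0.56 (adjusted p = 0.0602) and St8sia1, the GD3 synthase, at -0.55 (adjusted p = 0.129). Both probe sets of St6galnac4, the neighbour of St6galnac6, were below the filter, at 0.60 and -0.06, and neither was called. Just outside the filter lay St6galnac4 at a mean of 7.51 and Galnt4 at 7.49, and just inside lay St6galnac3 at 7.73, Galnt6 at 7.76 and Galnt3 at 7.77. A second probe set of St6gal1 differed by -1.11 where the tested one differed by 0.09, and neither was called.

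Over 11 lists of enzymes and proteins around these transferases, 19 of 102 genes tested were called in spastic minus control (12 higher, 7 lower). That is 18.6%, near the 19.8% of all genes (9.83% higher, 9.93% lower), against which the counts of each list are to be read. Of the genes that supply sialic acid, 0 of 4 tested passed, and of those that supply fucose and mannose 1 of 3 was higher, Slc35c2, of the nucleotide-sugar transporter family, at 0.38 (adjusted p = 0.0288). Of the galactose, glucose and glucuronic acid supply 1 of 8 was higher, the phosphoglucomutase Pgm1 at 0.40 (adjusted p = 0.0442), and of the N-acetylhexosamine supply 1 of 5 was lower, Gnpnat1, which acetylates glucosamine phosphate, at -0.97 (adjusted p = 0.0032). Glycan sulfotransferases and epimerases had 0 of 9 and glycosidases 0 of 12 called.

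In the oligosaccharyl transferase and dolichol arm, which makes and transfers the N-glycan precursor, 3 of 14 were higher and 2 lower. The catalytic subunit Stt3a was at -0.97 (adjusted p = 0.0147), and a second probe set of it was at -0.18. The subunits Dpm3 and Dpm1 of dolichol phosphate mannose synthase were at 0.50 and -0.46 (both adjusted p = 0.0218), and the mannosyltransferase Alg2 was at 0.43 (adjusted p = 0.0148). Of the genes listed under N-glycan trimming 3 of 9 were higher and 0 lower. They were the mannosidases Man1b1 (0.54) and Man2c1 (0.34) and the glucosidase subunit Prkcsh (0.43). Their adjusted p-values by limma were 0.0193, 0.0257 and 0.0456.

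Among glycosyltransferases outside the families above, 1 of 14 was higher and 2 were lower. Ugt8a, which makes the myelin lipid galactosylceramide, was at -3.64 ± 0.47 (SE; adjusted p = 0.00157) against controls and at -5.19 ± 0.82 (SE; adjusted p = 0.0164) against the B6C3Fe sample. Ogt, which adds N-acetylglucosamine to nuclear and cytosolic proteins, was at -0.66 (adjusted p = 0.00595), and Lfng, the Fringe enzyme that modifies Notch, at 0.99 (adjusted p = 0.0244). Of the proteoglycan core proteins 1 of 14 was higher, the heparan sulfate carrier Sdc4 at 0.80 (adjusted p = 0.0286), and 1 lower, the dermatan sulfate carrier Dcn at -0.75 (adjusted p = 0.0146). Of 10 glycan-binding proteins and carriers 2 were higher and 1 lower. Ncam1, the main carrier of polysialic acid, was at 0.49 (adjusted p = 0.0175) with other probe sets at 0.04 and 0.33, Lgals9 at 0.57 (adjusted p = 0.00931) with another probe set at -0.31, and Lgals8 at -1.20 (adjusted p = 0.0488).

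Calls among cell type markers are to be read against the 19.8% of all genes called in spastic minus control (9.83% higher, 9.93% lower). Of the endothelial and mural markers 9 of 11 tested were higher in spastic cords and 0 lower, with a median of 1.04, and their summed intensity ran from 9459 to 11630 on spastic arrays, 5486 to 5500 on B6C3Fe arrays and 4516 to 6011 on control arrays. Neuron markers had 2 higher and 3 lower of 11 (median -0.01). The lower ones were Map2 at -2.85, Syt1 at -2.83 and Nefl at -1.10, and the higher ones Syp at 0.72 and Nefm at 0.39. Neuron marker sums were 60040 to 85850, 58030 to 58710 and 62510 to 81320 on spastic, B6C3Fe and control arrays. Oligodendrocyte markers had 1 higher and 1 lower of 7 (median -0.12), astrocyte markers 0 higher and 2 lower of 7 (median -0.36), microglia markers 0 higher and 3 lower of 8 (median -0.07), and motor neuron markers 2 higher of 3 (median 0.80). The summed motor neuron markers ran from 5269 to 8514 on spastic arrays, 4004 to 4690 on B6C3Fe arrays and 3345 to 5144 on control arrays, with no overlap between spastic and other arrays. Muscle markers had 2 lower of 7 (median -1.13), meningeal markers 1 lower of 6, and blood and Schwann cell markers 0 called of 3 and of 2. The spinal cord markers had 2 higher of 9 (Hoxd10 and Hoxb5), and none of them was at the floor on all arrays of a group. Markers at the floor throughout a group were Isl1 in spastic and in B6C3Fe arrays, Aif1 in B6C3Fe arrays, Aldh1a2 in control arrays and Myh2 in all 3 groups. Against the B6C3Fe sample, 3 of 7 oligodendrocyte and 1 of 7 astrocyte markers were lower (0.638% of all genes). Higher there were 2 of 11 endothelial and mural, 1 of 3 motor neuron and 1 of 3 blood markers (1.42% of all genes). No other marker list had a call in that comparison. The part of these marker values in the differences of Fut9, St6galnac6, Extl3, B4galnt1, St8sia4, St6galnac5 and B3galt6 was not tested.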

How the data were processed

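The deposited table holds 1 linear intensity per probe set and array. Per the file headers it is the authors' processed value; the software, scanner and background correction are not given in the sources used here. After trimming 2% at either end, the mean of each array was 800.4 to 800.5, so the authors' intensities were treated as scaled already. Control probe sets (66) were left out. All 16 value columns were matched to a title.

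Values under the 20th percentile (intensity 60.9, log2 5.93; 14.7% to 24.1% of an array) were raised to it before taking log2. Probe sets were tested where the mean log2 value exceeded the 40th percentile of such means (7.62), and the highest was kept per gene. Symbols came from the platform annotation, and 60 of 60 probe sets matched RefSeq by Entrez ID. Probe levels are not comparable between probe sets, so enzymes were not ranked by level. No genome was used; promoters are those of the RefSeq table.

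Differences were fitted with limma 3.58.1 in R 4.3.3 (lmFit, eBayes with a trend) on 10 samples, with group and titled sex as terms, 2-sided, Benjamini-Hochberg adjusted over all 6427 genes. A positive difference means a higher value in the first-named group. The fits were also run on simulated data, and no result here rests on that run. The number of arrays limits the precision. Every glycosyltransferase could be named; called ones are given on each array, uncalled ones where the difference was largest in its sugar group or to complete a pathway, and up to 4 called genes of each pathway list. The members and lists were chosen with earlier results of these data known. Letters a and b were checked for pairing: over 6 titles the differences of a minus b correlated by -0.04 to 0.16 between titles, so the letters were not taken as pairs.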

Additional observations from a re-analysis of the deposited data

Results flagged for a closer look

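In 3 of the 78 sets of sample values looked at, 1 spastic sample stood apart from the other 4 (gap over range above 0.71, Dixon's criterion for 5 samples). Chance gives about 1 in 20, or 3.9. St3gal6 was at 7.71 in the 6-month spastic sample and at 8.04 to 8.14 in the others (gap over range 0.78). St6galnac6 was at 8.90 in the first 2-month spastic sample and at 9.47 to 9.65 in the others (0.76). St8sia4 was at 9.69 in the 3+ month spastic sample and at 9.29 to 9.35 in the others (0.84). Among those others, the 6-month sample was the mean of arrays at 8.91 and 9.79, so its array b exceeded 9.69.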

How the results depend on the processing

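Of the 39 glycosyltransferases, 7 were called in spastic minus control. With a filter at the 60th percentile 19 were tested and 4 called, against 24% of all genes. Fut9, St6galnac6, St6galnac5 and B3galt6 were not in that fit. The count was 4 with only the 1a arrays (11.6% of all genes) and 12 with every array as its own replicate (29.5%). It was 11 with the sample as a random block (consensus correlation 0.23), against 23.3% of all genes. With the letter as a replicate block it was 13 (28.3% of all genes), although the letters do not pair the samples. It was 3 when both spastic samples with male titles were dropped, 2 from female-titled samples alone, 11 after dropping array a of the female 9-month controls, and 0 when the Pcx ratio was a covariate. Leaving out 1 sample at a time gave 5 to 9. Over all genes the count of 1270 became 400, 214, 1435 and 9 in the last 4 of those fits, 723 without the 12-month female, 805 without the 12-month male and 777 without the 9-month male controls. In spastic minus B6C3Fe the count of 3 became 1 with no filter, 1 with a filter at the 60th percentile, 0 with only the 1a arrays, 1 after dropping both spastic samples with male titles, 0 with the Pcx covariate, and 0 to 3 on leaving out 1 sample, 0 without the sev sample and 1 without the 3+ month sample. For spastic minus B6C3Fe the shares over all genes in these fits are not given, so its counts cannot be set against them. The other 3 comparisons had 0 calls in each of these alternatives where run. The fit of every probe set with no filter is apart, and there B4galnt2 passed in B6C3Fe minus control at the floor. No called difference changed sign. Fewer samples or genes enter several of these fits; the cause of the other shifts was not tested. Signal near the floor limits Fut9, St6galnac6, St3gal3, Galnt6 and the untested genes.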
